A study of Mus musculus with 12 samples.

Results

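The interferon response genes described here are 36 genes that type I or type II interferon induces in many mouse cells. They were listed by name. Of the 36, 33 were found on the array through the RefSeq accession of 49 probes. Mx1, Mx2 and Dtx3l had no probe matched by accession and are not analysed here. The array carried 32678 genes or accessions in all. RNA came from NIH3T3, an established line of mouse embryonic fibroblasts, and each of 12 cultures was measured on a one-colour Agilent array. An 18 h exposure to DMSO (the solvent), 50 nM rapamycin or 2 µM PP242 defined the groups, with 4 arrays each. By the design text, replicates are independent experiments. The treatment protocol instead gives the PP242 dose as 2 mM. Each compound was used at a single dose and time in this 1 cell line, and the doses differ, so the compounds are compared only as they were given. Rapamycin inhibits mTORC1, the growth-controlling complex of the mTOR kinase, and PP242 blocks the catalytic site of mTOR and so acts on mTORC1 and mTORC2. The series title poses the question of which genes respond through each complex.

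Interferons are secreted when cells sense foreign nucleic acid. Type I interferon binds its receptor and activates the kinases JAK1 and TYK2, which phosphorylate STAT proteins. STAT2 and IRF9 are parts of the ISGF3 complex, which binds interferon-stimulated response elements in promoters. The induced genes encode RNA sensors that can amplify the response, proteins that block viral RNA or membranes, the ubiquitin-like protein ISG15, and the machinery that loads peptides on MHC class I. Fibroblasts hold a low level of many of these products without added interferon.

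Levels are given as the log2 of the processed signal minus the array's 75th percentile, so that 0 is that percentile and each unit is a doubling. A level belongs to its probe and is not compared between genes. A probe is well above background where the scanner software marks it so. A gene counts as called where its limma p-value, adjusted over all genes tested, is below 0.05.

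The arrays were not alike, and this touches every result below. On 4 of them (DMSO 2, rapamycin 3, PP242 1 and PP242 4) the dim probes were raised, with a ratio of the 75th to the 25th percentile of 7.12 to 51.1, against 261 to 420 on the other 8. The replicate 4 arrays stood apart in another way. On the 9 arrays of replicates 1 to 3, the Y-linked gene Ddx3y lay between -4.50 and -3.91 and the Y-linked gene Eif2s3y between -4.70 and -3.70. On DMSO 4 and rapamycin 4 Ddx3y lay at -8.36 and -8.46 and Eif2s3y at -8.23 and -8.41, and on PP242 4 they lay at -6.13 and -6.74. The correlation over all genes tested was 0.985 between DMSO 4 and rapamycin 4 and 0.956 to 0.974 between either of them and the other 6 arrays without raised background, which correlated with each other at 0.973 to 0.989. The reason was not tested. The results are therefore given for the 8 arrays (3 DMSO, 3 rapamycin, 2 PP242) and for the 6 of them that are not replicate 4 (DMSO 1 and 3, rapamycin 1 and 2, PP242 2 and 3), with replicate 4 shown apart. The 6-array set was defined once the data had been seen, and it rests on 2 arrays per group.

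All 8 fibroblast markers were tested on the 8 arrays, none of 4 dendritic cell and none of 4 endothelial markers passed the filter on background, and 2 macrophage, 2 lymphocyte and 2 epithelial markers passed it. The summed linear level of the fibroblast markers, as a multiple of the 75th percentile, was 777 to 843 on the DMSO and rapamycin arrays of the 6, 653 to 879 on the PP242 arrays and 726 to 839 on DMSO 4 and rapamycin 4. The sums over the macrophage markers Csf1r and Lyz2 were 0.134 to 0.161, 0.128 to 0.136 and, on DMSO 4 alone, 0.149, since Csf1r had no value on rapamycin 4. Lyz2, not above background on DMSO 4 or rapamycin 4, was at least 1.13-fold lower on replicate 4 (limma adjusted p = 0.00240) by the comparison given further down. The sums over lymphocyte markers were 0.0434 to 0.0758, 0.0568 to 0.0634 and 0.0464 to 0.0603 on the same arrays. The sums over the epithelial markers Krt8 and Krt5 were 0.0264 to 0.0546, 0.0223 to 0.0419 and 0.0808 to 0.131, so they were higher on replicate 4. By the comparison given further down, Krt8 was higher there by 2.75 ± 0.29 (standard error, limma adjusted p = 0.00186), and Krt5 was not called, at -0.15 ± 0.59. On the other 6 arrays Krt8 lay at -6.75 to -5.93. The lowest signals above background were -6.91 to -6.11 on those arrays, so the Krt8 difference rests partly on background. The matrix genes Postn and Lum are named after their values were seen. Postn lay between -0.03 and 0.75 on the 6 arrays and at -6.50 and -7.27 on DMSO 4 and rapamycin 4, and Lum between -3.26 and -1.59 and at 1.87 and 2.27. The part of these cells in the results was not tested, and in a bulk sample fewer cells of a type and less RNA per cell cannot be told apart.

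PP242 raised a set of these genes on both sets of arrays. On the 8 arrays, 31 members were tested, and 9 were called higher and 0 lower with PP242 than with DMSO: Trim34a, Xaf1, Parp14, Ifi35, Irf9, Stat2, Parp9, Tap1 and Tapbp. Of all 19659 genes tested in that comparison, 25.9% were called and 12.9% were called higher, and the members' share was 29.0%. The median difference was 0.61 over the members and -0.01 over all genes, on the log2 scale. Oas2 and Psmb8 did not pass the filter of 2 arrays well above background. Among the 8 arrays, DMSO and rapamycin include a replicate 4 array and PP242 does not, so replicate 4 enters the PP242 differences and their spread. By the comparison given further down, 1 of the 9 called members was also called on replicate 4. Of the 22 members not called, 19 were, beside 32.6% of all genes. Of the 24 members above background on all 8 arrays, 8 were called higher (33.3%) and 0 lower. Of 16047 such genes, 14% were called higher and 29.3% were called in either direction. On the 6 arrays 28 members were tested, since Oas1a, Rsad2 and Ifi44 did not pass the filter there, and 21 were called higher and 4 lower with PP242, where 49.3% of 19081 genes were called and 26.4% were called higher. The median was 0.85 over the members and 0.01 over all genes. All 9 genes called on the 8 arrays were called higher on the 6 arrays too, and 16 more were called there, 12 higher and 4 lower. At most 3 arrays per group limit the precision of each value.

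**Figure D1:**
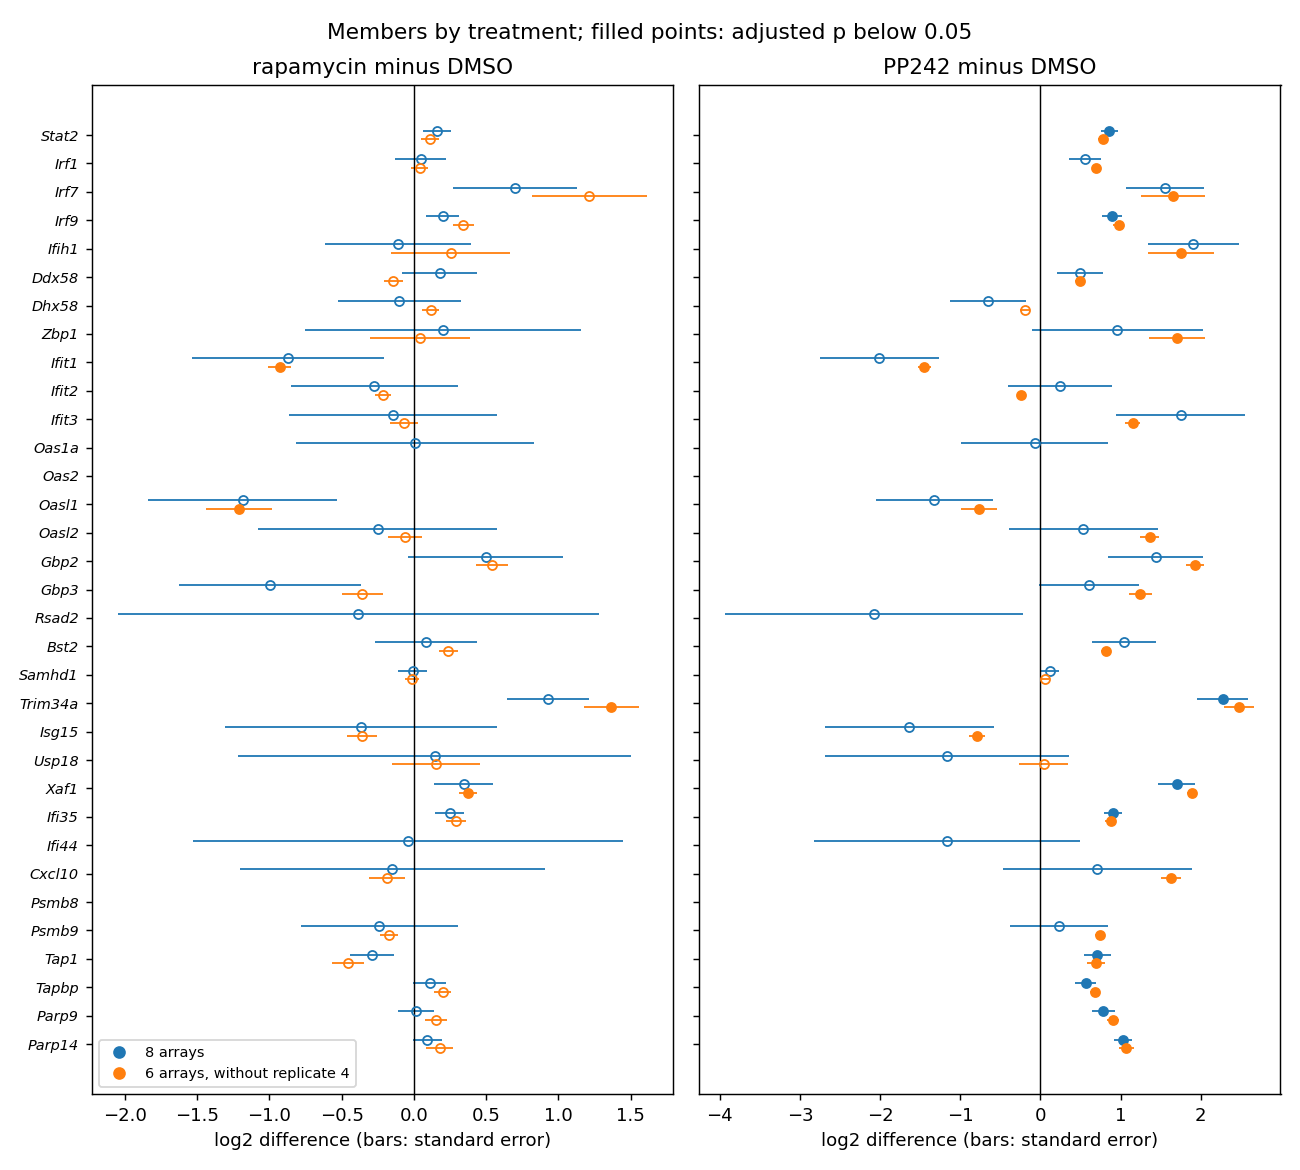
Log2 difference of each tested member (x axis) with its standard error, for rapamycin minus DMSO on the left and PP242 minus DMSO on the right, on 8 arrays (blue) and on the 6 without replicate 4 (orange). Filled points have a limma adjusted p below 0.05, and on the right the orange bars are short beside the blue ones for members such as Ifit1, Oasl2 and Cxcl10.

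With rapamycin against DMSO no member was called on the 8 arrays by limma, 2 had an unadjusted p under 0.05, and 0.0254% of all genes were called. On the 6 arrays, where 11.2% of all genes were called, Trim34a and Xaf1 were called higher and Ifit1 and Oasl1 lower. None of these 4 calls held when any 1 of the 6 arrays was left out. With PP242 against rapamycin, 8 members were called higher and 0 lower on the 8 arrays (all genes 13.8% called, 6.79% higher), namely the genes called against DMSO without Tapbp. On the 6 arrays 19 were called higher and 3 lower (all genes 36% called, 19.5% higher). That count on the 8 arrays fell to 0 without PP242 2 and to 0 without PP242 3. The comparisons share their PP242 or DMSO arrays, so they are not independent of each other.

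The arrays lay on 3 slides, and slides 2 and 3 held all treatments only when the raised-background arrays are counted. Of the 8 arrays, DMSO and PP242 met on slide 1 alone, slide 2 held rapamycin 2 and PP242 3, and slide 3 held DMSO 3 and rapamycin 4, so slide and treatment were only partly separable. With slide as a block, 5 members were called higher with PP242 than with DMSO on the 8 arrays (Stat2, Irf9, Xaf1, Ifi35 and Parp14) and 0 against rapamycin by limma. On the 6 arrays, 16 were called higher and 2 lower against DMSO, and the calls of Ddx58, Gbp3, Ifih1, Ifit2, Irf7, Oasl1 and Tap1 were lost. Within slides 1, 2 and 3, raised-background arrays included, the PP242 minus DMSO difference of Stat2 was 0.94, 0.50 and 0.63, that of Parp14 1.07, 0.79 and 0.64 and that of Ifit1 -2.37, -0.86 and -1.10. Other members changed sign between slides, such as Ifit3 at 2.06, -0.20 and 0.96 and Ifit2 at 0.46, -0.90 and -0.35. These differences mix in replicate 4, since slide 1 held DMSO 4 and slide 2 held PP242 4. Within those slides the median difference of the members was 0.46, 0.55 and 1.33 and that of all genes -0.04, -0.17 and 0.57. When single arrays of the 6 were left out, the PP242 calls of Ifih1, Irf7, Oasl1 and Ifit2 were lost in at least 1 case, and the calls of the other 21 members were kept in each fit that could be made.

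Among the transcription factors of the response, Stat2, a subunit of ISGF3, was at -0.70 on DMSO 1, -0.71 on DMSO 3 and -0.92 on DMSO 4. With rapamycin it was at -0.55, -0.63 and -0.66 on replicates 1, 2 and 4, and with PP242 at 0.13 and 0.04 on replicates 2 and 3. The PP242 arrays lay above all others, and the difference from DMSO was 0.86 ± 0.11 (1.81-fold, limma adjusted p = 0.00270). Against rapamycin it was 0.70 ± 0.11 (limma adjusted p = 0.00974). Irf9, the DNA-binding part of ISGF3, was at -2.08, -2.18 and -1.88 on the DMSO arrays, at -1.84, -1.74 and -1.97 on the rapamycin arrays and at -1.20 and -1.12 on the PP242 arrays. PP242 raised it by 0.89 ± 0.13 on the 8 arrays (1.85-fold, limma adjusted p = 0.00415) and by 0.97 ± 0.07 on the 6 arrays. Neither gene was called between replicate 4 and the other replicates, at -0.14 ± 0.07 for Stat2 and 0.03 ± 0.11 for Irf9.

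Irf1, an early target of interferon gamma, was at 2.41 and 2.39 on DMSO 1 and 3 and at 3.09 and 3.10 with PP242. DMSO 4 and rapamycin 4 lay between, at 2.82 and 2.89. The PP242 difference was 0.55 ± 0.20 on the 8 arrays (limma adjusted p = 0.0887) and 0.70 ± 0.06 on the 6 arrays (1.62-fold, limma adjusted p = 0.00163). Irf7, which drives interferon alpha genes, was not well above background on any DMSO array of the 8 and was above it on both PP242 arrays, at -4.91 and -4.68. Where a gene is dim in a whole group, the fold is bounded with the lowest signal that counts as above background on each of that group's arrays. By that bound Irf7 was at least 2.75-fold higher with PP242 on the 8 arrays (limma adjusted p = 0.0586) and at least 2.87-fold higher on the 6 arrays (limma adjusted p = 0.0280). It was above background on rapamycin 1 and 2, at -4.68 and -5.80, and not on rapamycin 4.

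The stretches below lie before the start sites of members that the results turn on, read from the RefSeq promoter table for GRCm38.p6. They show whether the core of the interferon-stimulated response element, GAAANNGAAA, stands there on either strand. Capitals mark each match, which reads as its reverse complement where it lies on the opposite strand. Members were taken in order of their adjusted p for PP242 on the 8 arrays. Ifi35 and Irf9 are shown where no other annotated transcript lies in the window, and Stat2 only around its match. The windows of Xaf1, Trim34a and Tapbp, which overlap another annotated transcript, are not printed. Isg15, Rsad2, Ifit1 and Ifit3 were chosen after their values had been seen, as genes that differed on replicate 4. The start used for Ifit3 lies within the annotated span of that gene, so its stretch lies inside the span. Parp14 and Parp9 have no entry in the table.
Ifi35, chr11:101448187-101448411, plus strand: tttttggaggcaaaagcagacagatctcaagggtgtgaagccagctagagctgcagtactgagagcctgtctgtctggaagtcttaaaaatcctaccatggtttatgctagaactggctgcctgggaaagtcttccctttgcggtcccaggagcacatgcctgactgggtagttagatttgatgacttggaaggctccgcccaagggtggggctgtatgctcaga
Irf9, chr14:55603760-55603984, plus strand: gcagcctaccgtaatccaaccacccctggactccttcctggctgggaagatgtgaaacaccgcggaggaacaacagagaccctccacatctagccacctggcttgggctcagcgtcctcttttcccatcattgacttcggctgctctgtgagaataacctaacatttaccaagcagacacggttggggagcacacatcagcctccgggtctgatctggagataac
Stat2, chr10:128270273-128270302, plus strand, 30 bases: tggTTTCAGTTTCctttccctagaactcac
Isg15, chr4:156200869-156200978, minus strand, 110 bases: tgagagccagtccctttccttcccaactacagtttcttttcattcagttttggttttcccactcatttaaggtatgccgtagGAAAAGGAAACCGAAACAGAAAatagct
Rsad2, chr12:26456503-26456612, minus strand, 110 bases: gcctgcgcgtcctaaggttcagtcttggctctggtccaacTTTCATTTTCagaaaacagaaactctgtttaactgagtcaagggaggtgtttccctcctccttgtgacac
Ifit1, chr19:34640784-34640813, plus strand, 30 bases: gTTTCACTTTCcagtctcagTTTCAGTTTC
Ifit3, chr19:34583397-34583426, plus strand, 30 bases: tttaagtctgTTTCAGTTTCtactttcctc

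The motif stood in the 250 bases before at least 1 start of 10 of the 28 members with an entry (Bst2, Cxcl10, Gbp2, Gbp3, Ifit1, Ifit3, Isg15, Oas1a, Rsad2 and Stat2) and in 978 of all 32851 windows of that length (2.98%). Isg15 held 3 overlapping matches from base -78 to base -57 before its start. Ifit1 held a pair, from base -104 to -95 and from -85 to -76. Ifit3 held another pair, from -156 to -147 and from -122 to -113, before the start within its annotated span. No match to these letters stood in the windows of Ifi35, Irf9, Xaf1, Trim34a, Tap1 or Tapbp. The core of the gamma-activated site, TTCNNNGAA, the same on both strands, stood in 6 of the 28 members (Bst2, Ifit2, Irf1, Oas1a, Psmb8 and Samhd1) and in 7.02% of all windows. In Bst2 it overlapped a match of the first motif. These are matches of letters and describe the windows only.

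Among the RNA sensors and their relatives, Ddx58 (RIG-I, which senses viral RNA ends) was at -2.56, -2.47 and -2.54 on the DMSO arrays, at -2.67, -2.65 and -1.72 on the rapamycin arrays and at -1.98 and -2.07 with PP242. Rapamycin 4 therefore lay above both PP242 arrays. The PP242 difference from DMSO was 0.50 ± 0.29 on the 8 arrays and 0.49 ± 0.06 on the 6 arrays (limma adjusted p = 0.00508). Its other 3 probes, which were dimmer, differed by 1.09 to 1.47 on the 6 arrays, and the dimmest was not above background. Ifih1 (MDA5, a sensor of long double-stranded RNA) was not above background on any DMSO or rapamycin array of the 8 and was above it on both PP242 arrays, at -4.99 and -6.10. It was at least 1.68-fold higher with PP242 on the 8 arrays (limma adjusted p = 0.0516) and at least 1.70-fold on the 6 (limma adjusted p = 0.0264). A dimmer probe of Ifih1 was not above background on the DMSO or PP242 arrays of the 8.

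Zbp1, a sensor of left-handed nucleic acid, was at -5.85 and -5.77 with PP242, and on the 8 arrays it was above background on 1 DMSO and 1 rapamycin array. Those were the replicate 4 arrays, at -5.28 and -4.76. On the 6 arrays it was at least 1.42-fold higher with PP242 than with DMSO (limma adjusted p = 0.0175). Dhx58 (LGP2, a relative of RIG-I that tunes its activity) had its lowest levels with PP242. It was at -4.95 and -4.93 on DMSO 1 and 3, -4.82 and -4.83 on rapamycin 1 and 2, and -5.18 and -5.08 with PP242, a difference of -0.19 ± 0.06 from DMSO (limma adjusted p = 0.0529) and -0.31 ± 0.06 from rapamycin (limma adjusted p = 0.0197). On DMSO 4 and rapamycin 4 it stood higher, at -3.54 and -4.07.

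The antiviral effectors of the IFIT and OAS families did not all move the same way. Ifit1, which binds viral RNA that lacks a host-type cap, was at -1.19 and -1.31 on DMSO 1 and 3, at -2.13 and -2.23 on rapamycin 1 and 2 and at -2.75 and -2.65 on PP242 2 and 3. The 3 treatments were therefore stepped, with no overlap between them on these 6 arrays. The difference from DMSO was -0.93 ± 0.08 with rapamycin (1.90-fold lower, limma adjusted p = 0.0175) and -1.45 ± 0.08 with PP242 (2.73-fold lower, limma adjusted p = 0.000772). PP242 against rapamycin differed by -0.52 ± 0.08 (1.43-fold lower, limma adjusted p = 0.0119). On replicate 4 Ifit1 was higher in every treatment, at 0.43 with DMSO, -0.33 with rapamycin and -1.32 with PP242, in the same order of treatments. With those arrays in the fit of 8 the PP242 difference was -2.01 ± 0.74 and was not called (limma adjusted p = 0.0966).

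Ifit3, a partner of IFIT1 in RNA binding, moved opposite to Ifit1. It was at -1.26 and -1.05 on DMSO 1 and 3, -1.18 and -1.28 on rapamycin 1 and 2, and -0.06 and 0.04 with PP242. PP242 raised it by 1.15 ± 0.10 (2.22-fold, limma adjusted p = 0.00165) on the 6 arrays, and rapamycin differed from DMSO by -0.07 ± 0.10. On replicate 4 it was lower in every treatment, at -2.97, -3.25 and -2.89. Ifit2, of the same family, was at 1.49 and 1.5 with DMSO, 1.26 and 1.30 with rapamycin and 1.22 and 1.29 with PP242, a difference of -0.24 ± 0.06 for PP242 (limma adjusted p = 0.0266). It too was lower on replicate 4, at 0.04, -0.36 and -0.41. Its call for PP242 was lost when any 1 of the 6 arrays was left out. A second, dimmer probe of Ifit2 was above background on all 8 arrays. On the 6 arrays that probe differed from DMSO by -0.75 with PP242 and by -0.60 with rapamycin.

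Oasl1, a member of the OAS family known to restrain translation of Irf7, was at -4.54 and -5.03 on DMSO 1 and 3, at -6.17 and -5.82 on rapamycin 1 and 2 and at -5.42 and -5.68 with PP242. It was lower with both compounds on the 6 arrays, with differences of -1.21 ± 0.23 with rapamycin (limma adjusted p = 0.0469) and -0.76 ± 0.23 with PP242 (limma adjusted p = 0.04998). Oasl2 was at -5.14 and -4.99 with DMSO, -5.03 and -5.22 with rapamycin and -3.79 and -3.61 with PP242, a rise of 1.36 ± 0.12 (2.57-fold, limma adjusted p = 0.00165). Both stood higher on DMSO 4 (-3.11 for Oasl1 and -2.58 for Oasl2) and on rapamycin 4 (-4.25 and -3.21). Oas1a, which makes the 2-5A messenger that activates RNase L, was above background on DMSO 4 and rapamycin 4 (-5.43 and -5.60) and on no other of the 8 arrays. Oas2 was not above background on any of the 8.

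Among the GTPases and membrane or nucleotide effectors, Gbp2, a guanylate-binding protein that attacks vacuoles and bacteria, was at -1.75 and -1.47 on DMSO 1 and 3. It was at -1.05 and -1.09 on rapamycin 1 and 2 and at 0.29 and 0.35 with PP242. PP242 raised it by 1.93 ± 0.11 on the 6 arrays (3.81-fold, limma adjusted p = 0.000819), and the rapamycin difference was 0.54 ± 0.11 (limma adjusted p = 0.0543). Gbp3 rose by 1.25 ± 0.14 with PP242 (2.37-fold, limma adjusted p = 0.00351) and differed by -0.36 ± 0.14 with rapamycin. On DMSO 4 both stood higher, at -0.13 and -3.57, than on DMSO 1 and 3, where Gbp3 was at -5.42 and -5.57. The rapamycin 4 value of Gbp3 was dropped because the scanner software marked the spot as an outlier.

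Bst2 (tetherin, which holds budding virus on the cell) was at 0.79 and 0.73 with DMSO, 0.97 and 1.03 with rapamycin and 1.53 and 1.62 with PP242, a rise of 0.82 ± 0.06 (1.76-fold, limma adjusted p = 0.00145). On replicate 4 it was lower, at 0.09, -0.14 and 0.62 with DMSO, rapamycin and PP242. Samhd1, which breaks down deoxynucleotides, stayed between 0.62 and 0.72 on all 6 arrays, and its PP242 difference was 0.06 ± 0.05 (limma adjusted p = 0.426). Rsad2 (viperin, which makes a chain-terminating nucleotide) was not above background on any of the 6 arrays, where it lay between -9.20 and -8.40. It was above background on DMSO 4 and rapamycin 4, at -4.02 and -4.35. Its other 2 probes were not above background on any of the 8 arrays.

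Trim34a, a ubiquitin ligase of the TRIM family, was not above background on any DMSO array. It was at -5.73 on both rapamycin 1 and 2 and at -4.64 and -4.60 on PP242 2 and 3. PP242 was at least 3.19-fold above DMSO on the 8 arrays (limma adjusted p = 0.00400) and at least 3.23-fold on the 6. Rapamycin was at least 1.5-fold above DMSO on the 6 arrays (limma adjusted p = 0.0323). Rapamycin 4, at -6.46, was not above background. The 3 probes of the gene differed: the second differed by 1.49 with PP242 on the 6 arrays and the third by -0.05, and a near-identical neighbour, Trim34b, is annotated in GRCm38.p6, so the signal may be shared.

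**Figure D2:**
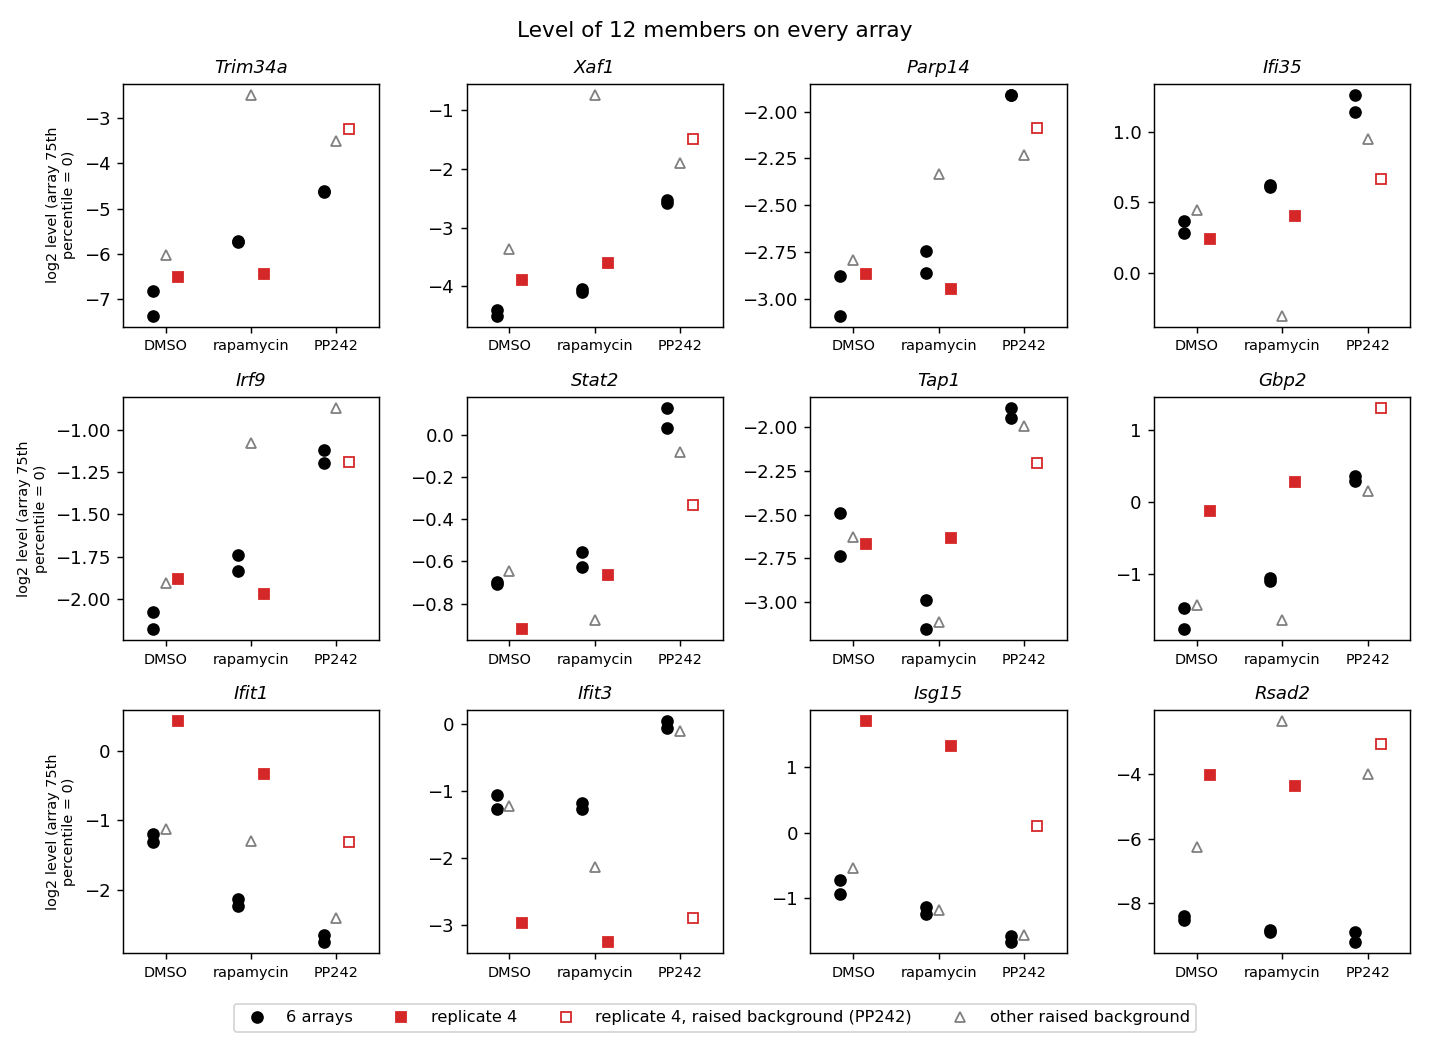
Log2 level on each array (y axis, with the array's 75th percentile at 0) for 12 members, by treatment. Black circles are the 6 arrays, red squares replicate 4 (open for PP242 4, which has raised background) and grey triangles the other arrays of raised background. Stat2, Ifi35, Parp14 and Xaf1 differ most by PP242, whereas Isg15, Rsad2 and Ifit3 differ most by replicate 4. Isg15, for example, is at 1.70 on DMSO 4 and -0.72 on DMSO 1. The split is not exclusive. Xaf1 was also called higher on replicate 4 (0.51), and Isg15 (-0.79) and Ifit3 (1.15) were also called with PP242 on the 6 arrays.

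In the ISG15 system, Isg15, which encodes a ubiquitin-like protein that enzymes attach to other proteins, was at -0.72 and -0.94 on DMSO 1 and 3. It was at -1.24 and -1.14 on rapamycin 1 and 2 and at -1.67 and -1.57 with PP242, so again the treatments were stepped without overlap. With PP242 it fell by 0.79 ± 0.10 on the 6 arrays (1.73-fold, limma adjusted p = 0.00479), and the rapamycin difference of -0.36 ± 0.10 was not called (limma adjusted p = 0.0973). On replicate 4 it stood at 1.70, 1.32 and 0.10 with DMSO, rapamycin and PP242. Usp18, which removes ISG15 and damps the receptor, was at -5.47 and -5.13 with DMSO and -5.46 and -5.05 with PP242, a difference of 0.04 ± 0.31 (limma adjusted p = 0.922). On DMSO 4 and rapamycin 4 it stood at -1.67 and -1.54.

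Xaf1, a pro-apoptotic partner of XIAP, was at -4.50, -4.40 and -3.89 on DMSO 1, 3 and 4, at -4.04, -4.10 and -3.61 on rapamycin 1, 2 and 4 and at -2.58 and -2.54 with PP242. PP242 raised it by 1.70 ± 0.23 on the 8 arrays (3.25-fold, limma adjusted p = 0.00361) and by 1.89 ± 0.06 on the 6. The rapamycin difference on the 6 arrays was 0.38 ± 0.06 (limma adjusted p = 0.0416). Ifi35, a cytoplasmic protein that pairs with NMI, was at 0.37, 0.28 and 0.24 with DMSO, 0.61, 0.62 and 0.40 with rapamycin and 1.14 and 1.26 with PP242. The PP242 rise was 0.91 ± 0.11 on the 8 arrays (1.87-fold, limma adjusted p = 0.00245), and the 3 rapamycin arrays lay above the 3 DMSO arrays by 0.25 ± 0.10 (limma adjusted p = 0.361).

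Cxcl10, a chemokine that draws T cells, was at -4.08 and -4.38 with DMSO, -4.44 and -4.39 with rapamycin and -2.52 and -2.68 with PP242, a rise of 1.63 ± 0.12 on the 6 arrays (3.10-fold, limma adjusted p = 0.00133). On DMSO 4 and rapamycin 4 it was higher still, at -1.46 and -1.54, and on the 8 arrays the PP242 difference was 0.71 ± 1.18. Ifi44 was above background on DMSO 4 and rapamycin 4, at -3.91 and -3.76, and on no other of the 8 arrays.

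In antigen processing, Tap1, a subunit of the transporter that feeds peptides to MHC class I, was at -2.49, -2.74 and -2.67 with DMSO, at -2.99, -3.15 and -2.63 with rapamycin and at -1.95 and -1.89 with PP242. PP242 raised it by 0.71 ± 0.17 on the 8 arrays (1.64-fold, limma adjusted p = 0.0247) and stood above rapamycin by 1.00 ± 0.17 (2.00-fold, limma adjusted p = 0.0137). Tapbp (tapasin, which tethers class I to that transporter) rose by 0.56 ± 0.13 (1.48-fold, limma adjusted p = 0.0216), from 3.46, 3.50 and 3.81 with DMSO to 4.12 and 4.18. Psmb9, an inducible catalytic subunit of the immunoproteasome, was at -2.10 and -2.15 with DMSO, -2.25 and -2.34 with rapamycin and -1.38 on both PP242 arrays, a rise of 0.75 ± 0.06 on the 6 arrays (1.68-fold, limma adjusted p = 0.00147). It stood at -0.58 and -0.95 on DMSO 4 and rapamycin 4. Psmb8, its partner, was not above background on any of the 8 arrays.

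The PARP genes rose with PP242. Parp14, a mono-ADP-ribosyltransferase, was at -3.09, -2.88 and -2.87 with DMSO, -2.75, -2.86 and -2.94 with rapamycin and -1.91 on both PP242 arrays. The rise was 1.03 ± 0.11 (2.05-fold, limma adjusted p = 0.00168), the lowest adjusted p of a member in that comparison on the 8 arrays. Parp9, the partner of DTX3L, rose by 0.79 ± 0.14 (1.72-fold, limma adjusted p = 0.00894), from -1.66, -1.62 and -1.28 to -0.81 and -0.66. Rapamycin differed from DMSO by 0.09 ± 0.10 for Parp14 and by 0.01 ± 0.12 for Parp9. The other 2 probes of Parp14 were not above background on the DMSO or PP242 arrays of the 8.

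Of the members not named in full for rapamycin, differences from DMSO on the 6 arrays ran from -0.46 ± 0.11 for Tap1 to 0.54 ± 0.11 for Gbp2 among those above background in both groups, and none of these was called. Irf7, dim with DMSO, was at least 2.11-fold higher with rapamycin (limma adjusted p = 0.125). Irf9 was at 0.34 ± 0.07 (limma adjusted p = 0.0560) and Ifi35 at 0.29 ± 0.07 (limma adjusted p = 0.0713). On the 8 arrays the lowest difference was -1.18 ± 0.66, for Oasl1. Trim34a, dim with DMSO, was at least 1.25-fold higher with rapamycin there (limma adjusted p = 0.270).

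PP242 stood above rapamycin on the 8 arrays by 1.36 ± 0.23 for Xaf1 (limma adjusted p = 0.0139), 1.35 ± 0.32 for Trim34a, 0.94 ± 0.11 for Parp14, 0.77 ± 0.14 for Parp9, 0.69 ± 0.13 for Irf9 and 0.66 ± 0.11 for Ifi35. On the 6 arrays it stood above rapamycin by 1.82 ± 0.12 for Cxcl10, 1.60 ± 0.14 for Gbp3, 1.42 ± 0.12 for Oasl2, 1.39 ± 0.11 for Gbp2 and 1.22 ± 0.10 for Ifit3. Zbp1, not above background with rapamycin there, was at least 1.69-fold higher with PP242. The other members that were higher differed by 0.48 (Tapbp) to 1.51 (Xaf1). The 3 lower ones were Ifit1, Dhx58 and Isg15, at -0.52 ± 0.08, -0.31 ± 0.06 and -0.43 ± 0.10. Irf7, Ifit2, Oasl1, Samhd1 and Usp18 were not called between the compounds, at 0.44 ± 0.40, -0.03 ± 0.06, 0.45 ± 0.23, 0.07 ± 0.05 and -0.11 ± 0.31, and neither was Ifih1, at least 2.03-fold higher with PP242 (limma adjusted p = 0.0524).

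**Figure D3:**
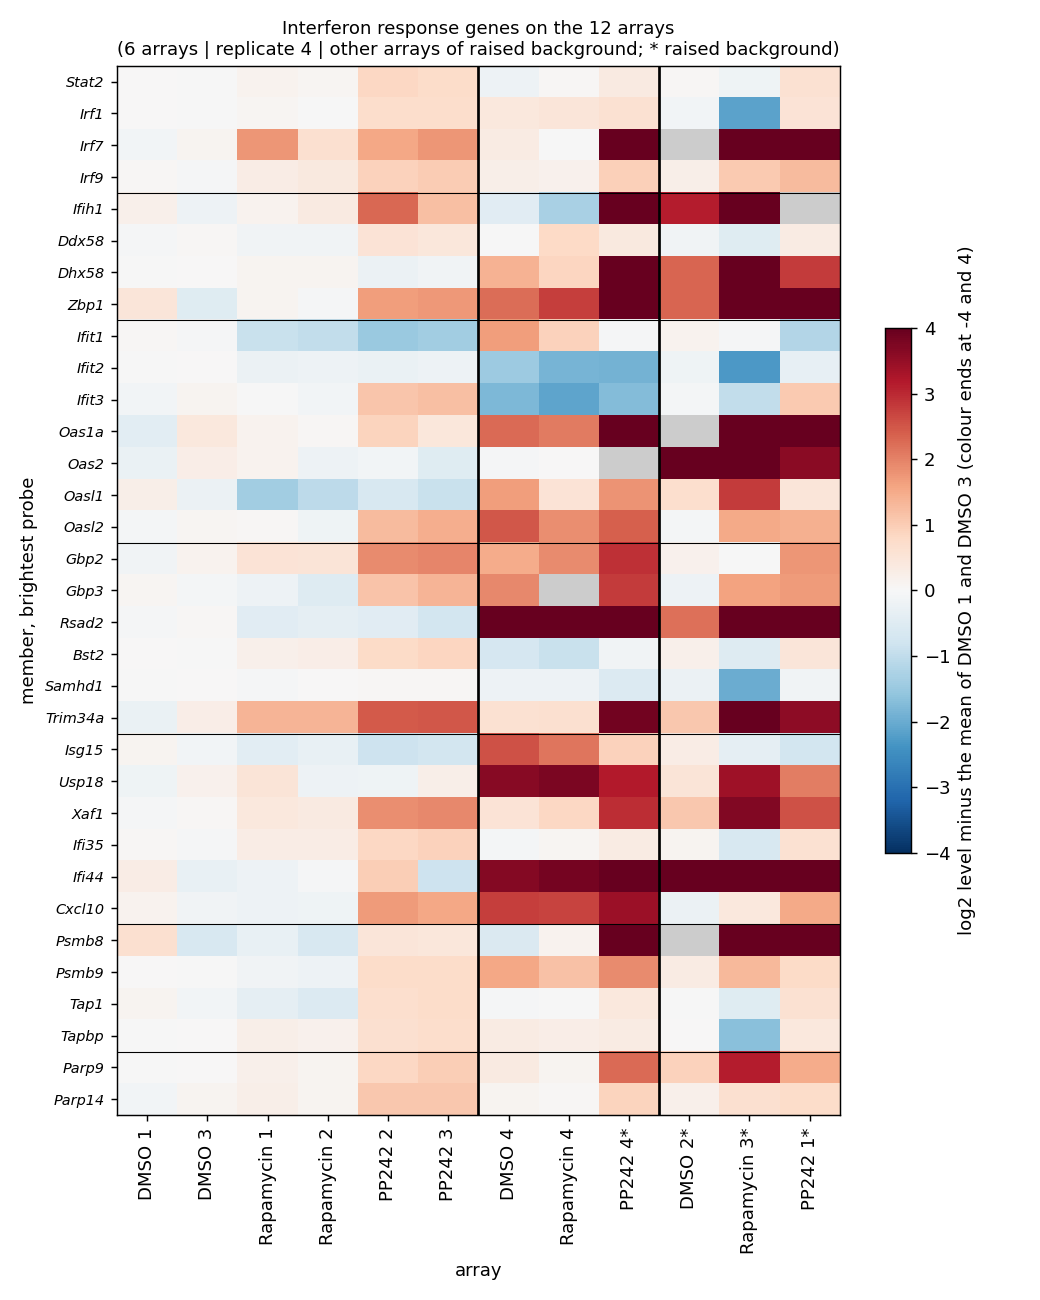
Level of the 33 members with a probe (rows, by role) on the 12 arrays (columns), as the log2 difference from the mean of DMSO 1 and DMSO 3. The first 6 columns are the 6 arrays, the next 3 replicate 4 and the last 3 the other arrays of raised background (grey: no value). Rsad2 and Usp18 are dark on DMSO 4 and rapamycin 4, and dim probes such as Oas2 and Psmb8 are dark on the starred arrays of raised background.

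Replicate 4 was then compared with replicates 1 to 3 on the 8 arrays, as DMSO 4 and rapamycin 4 against the other 6 with treatment as a term. DMSO 4 and rapamycin 4 carry the same replicate number and deviated together (correlation 0.622), but the fit counts them as independent arrays. Its standard errors and p-values therefore measure scatter between arrays, not spread between independent experiments. Of the 31 members, 16 were called higher on replicate 4 and 4 lower, where 32.6% of all 19659 genes were called. By role, 5 of 6 of the ISG15 group and 4 of 6 of the IFIT and OAS group were higher. Rsad2 was at least 5.12-fold and Ifi44 at least 6.54-fold higher. Usp18 differed by 3.62 ± 0.24 (12.3-fold, limma adjusted p = 0.000422), Cxcl10 by 2.83 ± 0.10 (7.10-fold) and Isg15 by 2.52 ± 0.08 (5.73-fold, limma adjusted p = 6.79e-05). Oas1a was at least 2.04-fold higher. Oasl2, Gbp3, Ifit1, Oasl1, Psmb9, Gbp2, Dhx58, Xaf1 and Irf1 were higher by 0.44 to 2.20, and so was Zbp1, which was above background on 2 of the other 6 arrays. The 4 lower members were Ifit3, at -1.92 ± 0.09 (3.78-fold, limma adjusted p = 0.000166), Ifit2 at -1.55 ± 0.07, Bst2 at -0.91 ± 0.12 and Samhd1 at -0.19 ± 0.05.

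The members called both with PP242 on the 6 arrays and on replicate 4 are set side by side here. They share arrays. The differences ran opposite for the first members given. Isg15 was at -0.79 for PP242 and 2.52 for replicate 4, Ifit1 at -1.45 and 1.77, Oasl1 at -0.76 and 1.71, Ifit3 at 1.15 and -1.92 and Bst2 at 0.82 and -0.91. They ran the same way for Gbp2 (1.93 and 1.41), Cxcl10 (1.63 and 2.83), Oasl2 (1.36 and 2.20), Gbp3 (1.25 and 1.92), Psmb9 (0.75 and 1.45), Xaf1 (1.89 and 0.51), Irf1 (0.70 and 0.44), Ifit2 (-0.24 and -1.55) and Zbp1, which was not above background on DMSO or rapamycin arrays of the 6. Both quantities use the same 6 arrays, so no test of this pattern is given. PP242 4 carries raised background and entered neither fit, yet Isg15 stood there at 0.10 against -1.67 to -1.56 on PP242 1 to 3, Ifit3 at -2.89 against -0.10 to 0.04 and Ifit2 at -0.41 against 1.15 to 1.29.

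**Figure D4:**
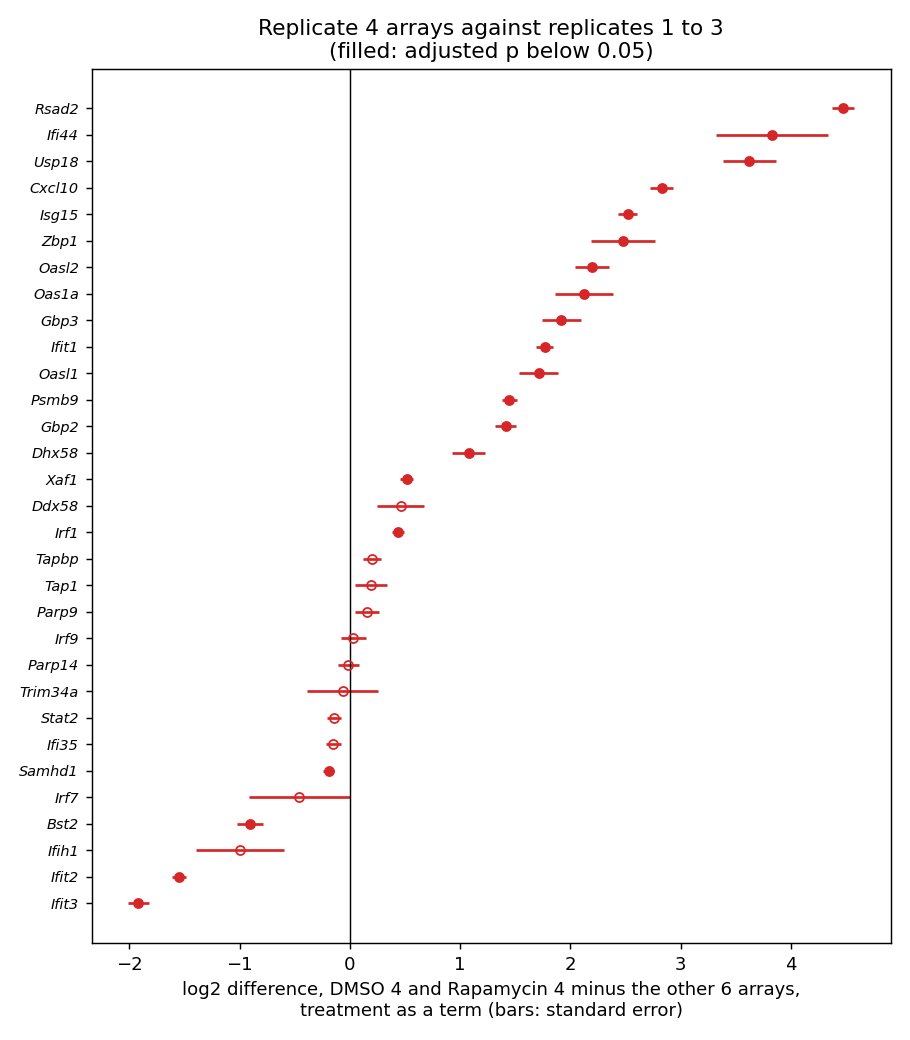
Log2 difference of DMSO 4 and rapamycin 4 from the other 6 arrays with treatment as a term (x axis), with its standard error, for the 31 members tested, in order of the difference. Filled points have a limma adjusted p below 0.05, and Usp18 is at 3.62 and Ifit3 at -1.92. The bars measure scatter between arrays, since the fit counts DMSO 4 and rapamycin 4 as independent. Rsad2, Ifi44 and Oas1a were not above background on the other 6 arrays, so their plotted values and places in the order rest on background.

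The other genes of the pathway were examined in 9 lists. On the 8 arrays 107 of their genes were tested, and 20 were called higher and 8 lower with PP242 than with DMSO. That is 26.2% of them in either direction, beside 25.9% of all genes. Of all genes, 12.9% were called higher and 13% lower, so the 107 leaned to higher calls. Of the 8 lower calls, 4 were constitutive proteasome beta subunits. On the 6 arrays the share of a list called higher ran from 0% (constitutive proteasome subunits and interferon genes) to 60% (STAT and IRF factors), beside 26.4% of all genes. Of 12 receptor and kinase genes, Ifnar2, a chain of the type I receptor, rose by 0.62 ± 0.12, the kinase Tyk2 by 0.53 ± 0.11 and the STAT inhibitor Pias1 by 0.52 ± 0.12, and the phosphatase gene Ptpn11 was lower and fell by 0.58 ± 0.09. Of 10 STAT and IRF factors outside the members, Irf3, activated downstream of the sensors, was called, at 0.46 ± 0.11. Of 15 nucleic acid sensors and adaptors, Cgas, the sensor of cytosolic DNA, fell by 1.81 ± 0.12 (limma adjusted p = 0.000436) and Traf3 by 0.94 ± 0.17, whereas the kinase gene Ikbke rose by 1.05 ± 0.10 and the adaptor gene Ticam1 by 0.74 ± 0.17.

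Of 30 other interferon-induced antiviral genes, 7 rose with PP242, or 23.3%, beside 12.9% of all genes, and none fell, beside 13%. On the 6 arrays 55.2% of this list were called higher and 10.3% lower, beside 26.4% and 22.9% of all genes. Trim21, an intracellular antibody receptor, rose by 0.96 ± 0.10, Uba7, the activating enzyme for ISG15, by 2.24 ± 0.36, Ifi27 by 0.70 ± 0.12 and the exonuclease gene Isg20 by 0.93 ± 0.16. Of 8 guanylate-binding and immunity-related GTPase genes outside the members 25% were called, and Igtp rose by 1.47 ± 0.15 and Irgm2 by 1.95 ± 0.26. Of 14 antigen presentation genes 4 rose and 1 fell (35.7%), with Tap2, the other subunit of the peptide transporter, at 1.03 ± 0.11, the peptidase gene Erap1 at 0.64 ± 0.15, H2-T22 at 0.68 ± 0.17 and the chaperone gene Calr at -0.70 ± 0.09. Of 7 constitutive proteasome beta subunits none rose and 4 fell (57.1%), Psmb3 by 0.64 ± 0.09, Psmb7 by 0.70 ± 0.10, Psmb5 by 0.50 ± 0.09 and Psmb2 by 0.56 ± 0.11, beside the rise of Psmb9 on the 6 arrays. Of 6 chemokine and surface ligand genes, Fas, a death receptor, rose by 1.07 ± 0.16. Of 5 interferon and cytokine genes none was called by limma and none had an unadjusted p under 0.05, with Il6 at -1.34 ± 0.59 and Ifnl3 at 0.43 ± 0.50.

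Against rapamycin, PP242 gave 11 higher and 7 lower calls among the 107, or 16.8%, beside 13.8% of all genes. Cgas fell by 1.61 ± 0.12, Ptpn11, Traf3, Calr, Psmb2, Psmb7 and Ccl2 were the others lower, at -0.82 to -0.40, and Ikbke, Ticam1, Tap2, Igtp, Irgm2, Trim21, Cnp, Isg20, Tyk2, Fas and H2-M3 were higher, by 0.47 to 1.48. With rapamycin against DMSO none of the 107 was called by limma on the 8 arrays, 12 had an unadjusted p under 0.05, and the 2 brightest genes of each list differed by -0.32 (Psmb3) to 0.71 (Ccl2). On replicate 4 the chemokine gene Ccl5 was higher by 4.02 ± 0.18, Cmpk2, a nucleotide kinase gene, at least 2.07-fold, Il6 by 1.40 ± 0.05 and the receptor inhibitor Socs1 by 1.35 ± 0.07. The GTPase genes Ifi47 and Irgm1 stood there at differences of -1.96 ± 0.09 and -1.91 ± 0.18, and Ifngr1, a chain of the interferon gamma receptor, at -0.90 ± 0.06. These 7 genes were chosen after their replicate 4 values were seen.

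With all 12 arrays, of 33 members tested, none was called in any of the 3 comparisons by limma. Members with an unadjusted p under 0.05 numbered 0 when rapamycin was set against DMSO, 9 when PP242 was, and 6 between the compounds. Among all 25579 genes 0%, 0.387% and 0% were called. The median of all genes was itself shifted there, by 0.181, 0.383 and 0.265, and the members' medians were 0.184, 0.682 and 0.672. Centred on each array's median, the members' medians were -0.368, -0.156 and 0.386 and those of all genes -0.364, -0.426 and -0.00158. Without rapamycin 3, the array with the strongest rise of dim probes, 12 members were called against DMSO and 7 against rapamycin, all higher with PP242. In the pathway lists Uba7 and Igtp were called with PP242 against DMSO on the 12 arrays, at 2.10 ± 0.29 and 1.39 ± 0.20.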

How the data were processed

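RNA from 12 NIH3T3 cultures was amplified by whole transcriptome amplification, labelled with Cy3 and hybridised to one-colour Agilent arrays, per the labels' protocols. The deposited scanner files hold the processed signal intensity of 45018 spots per array, written by Agilent Feature Extraction 10.5.1.1 per the file headers and 10.1 per the submitters' processing notes. Their flags for spots well above background or outlying are other columns of the same deposited files. The deposited log2 table of the series was used as an alternative only, and the sources used here do not give its normalisation.

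Control spots were left out, outlier spots (1.52% of values) were set to missing, and the log2 of the processed signal had the array's 75th percentile subtracted. Spots of a probe were averaged, and the brightest probe stood for a gene. Genes were named by RefSeq accession (24844 of 41174 probes named, the others kept under their accession or probe name). A gene was tested where it was well above background on at least 4 of 12, 2 of 8 or 2 of 6 arrays. limma 3.58.1 in R 4.3.3 fitted treatment over all groups (lmFit and eBayes), with Benjamini-Hochberg adjustment over all genes tested and a threshold of 0.05. The 8 arrays are those whose 75th percentile is over 100 times their 25th. Replicate 4 was tested in a separate fit with treatment as a term. The fit was checked on simulated data. Motifs and sequences came from RefSeq promoter windows of GRCm38.p6.

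The members, the pathway and marker lists and the 8-array fit were chosen with earlier results of these data known. Every member was accounted for. Of each pathway list at most 4 called genes per comparison were named, by adjusted p, and otherwise its 2 brightest genes. Scaling, background correction, filter, probe choice, slide and replicate blocks, array weights and single arrays were varied.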

Additional observations from a re-analysis of the deposited data

Results flagged for a closer look

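In each treatment of 4 arrays, the highest or lowest array was compared with the other 3, and 23 of 93 member groups held an array whose gap to the nearest of them, as a share of the whole range, exceeded Dixon's critical value. Chance gives about 1 in 20 for independent groups of like arrays. The member groups share the same arrays, so they are not independent. The share over all genes was not computed, so whether the members stand out from other genes in this was not tested. Of the 23, 8 were on DMSO 4, 7 on rapamycin 3, 6 on PP242 4, 1 on rapamycin 4 and 1 on DMSO 2.

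On DMSO 4, Isg15 stood high at 1.70 (other DMSO arrays -0.94 to -0.54), Ifit1 at 0.43 (-1.31 to -1.13), Cxcl10 at -1.46 (-4.46 to -4.08), Oasl2 at -2.58 (-5.14 to -4.99), Gbp3 at -3.57 (-5.68 to -5.42) and Tapbp at 3.81 (3.46 to 3.50). Ifit2 stood low there at 0.04 (1.34 to 1.5) and Ifit3 at -2.97 (-1.26 to -1.05).

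The PP242 4 array, which also has raised background, stood apart for 5 of those genes and for Psmb9. Isg15 was at 0.10 (other PP242 arrays -1.67 to -1.56), Cxcl10 at -0.82 (-2.73 to -2.52), Oasl2 at -2.66 (-3.79 to -3.61) and Psmb9 at -0.22 (-1.38 to -1.37). Ifit2 was low at -0.41 (1.15 to 1.29) and Ifit3 at -2.89 (-0.10 to 0.04). On rapamycin 4, Isg15 was high at 1.32 (-1.24 to -1.14).

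Rapamycin 3, the array with the smallest spread between bright and dim probes, was high for Dhx58 at 0.78, Oas2 at -0.86, Psmb8 at 0.11, Xaf1 at -0.74 and Parp9 at 1.5, and low for the brighter Samhd1 at -1.31 and Tapbp at 1.82. On DMSO 2, another array of raised background, Oas2 was high at -4.24. The part of background in these values was not tested.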

How the results depend on the processing

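No called value changed direction. Uncalled medians on 12 arrays did: the members' median for PP242 against DMSO went from 0.682 to -0.156 with median centring, and that for rapamycin against DMSO from 0.184 to -0.179 with quantile normalisation and -0.368 with median centring. On 12 arrays the count of called members was 0 in each comparison. For PP242 against DMSO it became 1 with probes above background on every array, 9 with only the groups compared, 22 with array weights and 2 on the 9 arrays of replicates 1 to 3. Array weights gave 6 for rapamycin against DMSO and 20 for PP242 against rapamycin. Leaving out single arrays gave 0 to 0 when rapamycin was set against DMSO, 0 to 12 for PP242 against DMSO and 0 to 7 between the compounds, with the highest values without rapamycin 3.

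On 8 arrays the 9 calls for PP242 against DMSO became 5 with slide as a block, 19 with array weights and 25 on 6 arrays. The 8 calls against rapamycin became 4 with median centring, 5 with normexp, 0 with slide as a block, 20 with array weights and 22 on 6 arrays. For rapamycin against DMSO array weights gave 3 and 6 arrays gave 4. Leaving out single arrays gave 0 to 0, 6 to 15 (6 without PP242 3, 15 without rapamycin 4) and 0 to 10 (0 without PP242 2 or PP242 3, 10 without DMSO 4) for the 3 comparisons in that order.

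On 6 arrays the 4 rapamycin calls became 2 with quantile normalisation, 1 with median centring, normexp or the deposited log2 table, 7 with probes above background on every array, and 0 with no filter, with only the groups compared or with slide as a block. Leaving out single arrays gave 0 to 0, 20 to 22 and 17 to 22. Where that left 1 array in a group, it was assumed to vary like the others. The cause of these changes was not tested.

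The labels do not say that a replicate number marks a shared batch, and the numbers were not taken as pairs because the correlations of same-numbered deviations were not all positive (-0.897 to 0.78 on 12 arrays, -0.247 to 0.622 on 8). On 12 arrays each negative one involves an array of raised background, and DMSO 4 and rapamycin 4 did deviate together, at 0.505 on 12 arrays and 0.622 on 8. With a replicate block PP242 against DMSO gave 0 calls on 12 arrays, 15 on 8 and 16 on 6, and on 6 arrays both rapamycin against DMSO and PP242 against rapamycin gave 0.

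Of the members called with PP242 against DMSO on 8 arrays, Stat2, Xaf1, Ifi35 and Parp14 kept their call in every alternative run. The 6-array set, the replicate 4 comparison and the 9-array set were chosen after seeing the data. Dim members such as Oas2, Psmb8 and, outside replicate 4, Rsad2 and Ifi44 were limited by signal over background.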
